A study of Mus musculus with 6 samples.

Results

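The genes of G2/M phase and mitosis are the set that a cell reads as it prepares to divide and then divides, and 42 of them, named one by one in a list, are described here across all 6 libraries of the study. They are 42 of the 51826 genes in the deposited table. All 42 passed the filter on low counts, which kept 11969 genes. RNA was sequenced from CD34-KSL cells of mouse bone marrow, the fraction that carries Kit and Sca-1 but neither lineage antigens nor CD34 and that is rich in long-term hematopoietic stem cells. The groups were wild type (WT, 2 libraries) and Elovl6 knock out (Elovl6 KO, 4 libraries). Elovl6 lengthens long-chain fatty acids, and the comparison asks how its loss bears on gene expression in stem cells. No treatment is named for either group. The strain, age and sex of the mice, the deleted part of Elovl6 and the use of a Cre are not named in the labels, nor is it said that each library came from its own animal. P-values therefore measure the spread between these libraries, which may be technical.

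Long-term hematopoietic stem cells are mostly at rest and enter division rarely, while the progenitors they give rise to cycle quickly. As a cell passes from S phase into G2, the kinase Cdk1 pairs with A-type and then B-type cyclins and is switched on, the spindle is built by motors and microtubule-binding proteins, and kinetochores attach chromosomes to it under the watch of a checkpoint. The anaphase promoting complex then marks cyclins and other proteins for breakdown, and the cell is cut into daughters. Most of these genes share a timed switch: the DREAM complex holds them off in resting cells through a promoter element called the CHR, the cell cycle genes homology region, and B-Myb and Foxm1 turn them on late in the cycle, with NF-Y bound to CCAAT boxes nearby.

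RefSeq promoters (build GRCm38.p6, which has the same coordinates as mm10) were matched by symbol for 38 of the 42 members, all but Ccna2, Aurkb, Kif20a and Tpx2. The sequences below, each 250 bases before to 50 bases after the annotated start, are shown for Ccnb1, Ccnb2, Cdk1, Cdc20, Ube2c and Top2a, well-known genes of the late cell cycle, and for Ncapd2, the member with a fold change below 0, which was chosen after its value was seen. They come from chr13:100786437-100786736 on the minus strand, chr9:70421505-70421804 on the minus strand, chr10:69352863-69353162 on the minus strand, chr4:118437294-118437593 on the minus strand, chr2:164769679-164769978 on the plus strand, chr11:99024140-99024439 on the minus strand and chr6:125191537-125191836 on the minus strand. Each is written 5′ to 3′ in the direction of the gene, and capitals mark every match to a CHR (TTTGAA or TTTAAA) or a CCAAT box (CCAAT) on either strand.
Ccnb1: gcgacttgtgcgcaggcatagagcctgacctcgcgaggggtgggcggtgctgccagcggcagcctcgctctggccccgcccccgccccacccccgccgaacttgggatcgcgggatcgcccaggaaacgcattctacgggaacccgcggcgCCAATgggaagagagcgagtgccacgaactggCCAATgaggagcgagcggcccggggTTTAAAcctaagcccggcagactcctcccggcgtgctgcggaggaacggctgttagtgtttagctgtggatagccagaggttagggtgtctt
Ccnb2: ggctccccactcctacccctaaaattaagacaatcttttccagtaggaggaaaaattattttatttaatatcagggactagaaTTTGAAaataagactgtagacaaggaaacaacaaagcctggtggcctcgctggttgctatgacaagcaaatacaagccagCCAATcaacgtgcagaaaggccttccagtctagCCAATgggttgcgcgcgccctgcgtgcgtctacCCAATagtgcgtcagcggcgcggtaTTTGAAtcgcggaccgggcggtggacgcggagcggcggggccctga
Cdk1: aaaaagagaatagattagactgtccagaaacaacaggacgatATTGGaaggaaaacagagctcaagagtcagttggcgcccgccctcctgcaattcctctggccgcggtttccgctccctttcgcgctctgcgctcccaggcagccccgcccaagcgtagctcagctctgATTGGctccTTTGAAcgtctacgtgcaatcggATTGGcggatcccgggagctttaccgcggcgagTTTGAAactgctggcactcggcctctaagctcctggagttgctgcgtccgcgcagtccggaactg
Cdc20: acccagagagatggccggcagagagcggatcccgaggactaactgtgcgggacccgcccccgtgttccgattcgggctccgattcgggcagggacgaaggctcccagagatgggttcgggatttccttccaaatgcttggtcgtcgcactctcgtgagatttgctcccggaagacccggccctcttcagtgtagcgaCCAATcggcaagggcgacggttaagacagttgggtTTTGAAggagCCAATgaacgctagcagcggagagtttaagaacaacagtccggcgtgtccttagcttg
Ube2c: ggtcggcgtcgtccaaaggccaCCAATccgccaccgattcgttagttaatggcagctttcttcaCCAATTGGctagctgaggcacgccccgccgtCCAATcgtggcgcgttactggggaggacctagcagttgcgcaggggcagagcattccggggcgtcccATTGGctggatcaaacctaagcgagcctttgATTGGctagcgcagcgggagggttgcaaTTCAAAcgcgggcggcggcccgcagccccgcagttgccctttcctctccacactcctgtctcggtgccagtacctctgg
Top2a: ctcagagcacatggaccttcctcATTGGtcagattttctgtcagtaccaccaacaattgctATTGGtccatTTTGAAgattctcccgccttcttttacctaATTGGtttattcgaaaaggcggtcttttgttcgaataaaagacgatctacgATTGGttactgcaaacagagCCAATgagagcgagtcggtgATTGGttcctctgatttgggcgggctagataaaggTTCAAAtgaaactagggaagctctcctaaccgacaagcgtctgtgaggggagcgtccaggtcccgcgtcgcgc
Ncapd2: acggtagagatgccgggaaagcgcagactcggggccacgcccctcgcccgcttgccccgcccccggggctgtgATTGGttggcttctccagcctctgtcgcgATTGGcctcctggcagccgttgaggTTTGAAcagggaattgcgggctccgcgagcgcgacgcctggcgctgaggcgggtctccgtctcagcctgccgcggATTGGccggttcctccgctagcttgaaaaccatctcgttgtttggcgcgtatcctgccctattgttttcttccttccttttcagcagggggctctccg

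A CHR match stood in the promoter window of 34 of the 38 members (89.5%, 95% Wilson interval 75.9 to 95.8), while 30.6% of 27025 genes with a RefSeq promoter held one in a window of the same length. A CCAAT box was found in 31 members (81.6%, against 41.1% of all genes), and 22 members held at least 2 of them (57.9%, against 13.3%). Both kinds of match occurred together in 29 members, which is 76.3% of those with a promoter, and in 12.2% of all genes. Ube2c and Top2a carried 6 CCAAT boxes each, and Ccnb1 had its CHR match closer to the start than both of its CCAAT boxes. No CHR letters were in the windows of Bub1, Nek2, Nuf2 and Nusap1, and no CCAAT letters in those of Anln, Birc5, Kif20b, Kif2c, Ndc80, Nuf2 and Nusap1. The window of Kif2c (117178723 to 117179022) lies inside its gene span in the deposited table (117159639 to 117182639). That of Cdca8 and some others does so too, and such a window may miss an outer start. Matches that overlap were each counted, and in 1 member a CHR and a CCAAT match overlapped. In a shorter window, from 100 bases before to 50 after the start, 78.9% of members and 14.7% of all genes held a CHR, and 63.2% and 3.50% held both. These are matches of letters, and no binding was measured.

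**Figure D1:**
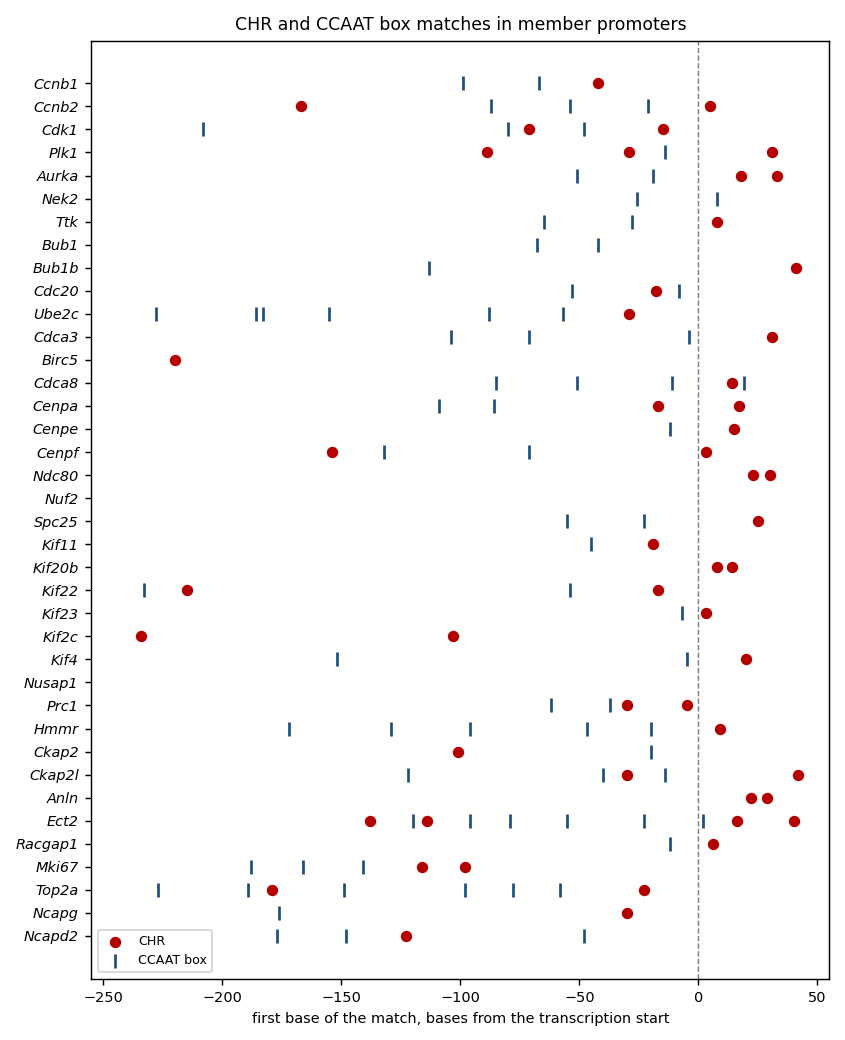
Position of each CHR match (circles) and each CCAAT box (vertical marks) in the promoter windows of the 38 members with a RefSeq promoter, 1 line per member, with the first base of the match on the x axis in bases from the annotated start (dashed line). Ect2 and Prc1 have overlapping windows from different annotated starts on the same line, so the same matches are drawn again at other positions. CHR matches gather close to the start, with CCAAT boxes mostly before them, and 34 members have at least 1 CHR.

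The libraries held between 2121240 and 5137628 gene counts, and KO replicates 3 and 4 were the shallowest. Elovl6 itself had 111 and 147 counts in WT and 106, 61, 56 and 18 in KO, or 30.6 and 38.3 against 21.4, 12.7, 19.5 and 8.81 CPM, the counts scaled to library size by the TMM method. Every KO library lay below both WT libraries in CPM and none was at 0, and since the deleted part is not named, reads outside it check nothing. RNA of the sorted gate was present in all 6 libraries, with Kit between 966 and 1444 CPM and Hlf between 551 and 775 CPM. Cd34 RNA was read at 342 and 309.7 CPM in WT and 406, 389, 417 and 305 CPM in KO, although the gate leaves out cells with the CD34 protein.

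The mitotic genes were read at high levels in KO replicates 1 and 4, while KO replicates 2 and 3 lay near or between the WT libraries for most members. In each list of values here, WT replicates 1 and 2 come first and KO replicates 1 to 4 follow in that order. The CPM of the 42 members summed to 1964 and 3074 in WT and to 6080, 2566, 2469 and 4856 in KO. The mean sum was 2519 ± 785 CPM (SD, n = 2) in WT and 3993 ± 1776 CPM (SD, n = 4) in KO, so the difference between means was smaller than the spread within KO. Leaving out Mki67, Top2a and Ncapd2, the members with the highest levels, the sums were 1211 and 1880 CPM in WT and 3857, 1518, 1532 and 2720 CPM in KO. In bulk RNA such as this, a different share of cells in division and a different level of these RNAs in each cell cannot be told apart.

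No member passed the threshold of the test between genotypes, the edgeR quasi-likelihood test with Benjamini-Hochberg adjustment over all 11969 genes at 0.05. It called 0 of 42 members, beside 0.159% of all genes tested. The smallest adjusted p among the members was 0.424 (edgeR, Kif11) and the largest 0.984 (edgeR, Cdca3). With an unadjusted p under 0.05 there were 8 members higher in KO, namely Kif11, Ckap2l, Cenpf, Spc25, Kif20b, Cenpe, Mki67 and Kif4, and 0 lower, where 5.67% of all genes tested were higher and 4.23% lower by that measure. DESeq2 called 0 members, beside 0.727% of all genes, and gave 11 members an unadjusted p under 0.05 with KO higher, beside 5.53%. For limma-voom these counts were 0 members, beside 0.0752% of all genes, and 1 member, beside 4.65%. In the authors' deposited table, 0 of the 42 had an adjusted p under 0.05, beside 0.147% of its 51826 genes, and 8 had an unadjusted one, beside 2.75% of a table that also holds the genes with few or no reads. Without a filter on low counts, where 18189 genes entered, 11 members were called by edgeR, all higher in KO, beside 1.26% of those genes: Cenpe, Cenpf, Ckap2l, Kif11, Kif4, Mki67, Nusap1, Spc25, Top2a, Tpx2 and Ube2c.

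The fitted log2 fold changes (KO over WT) were above 0 for 41 of 42 members, beside 51% of all genes tested. Their median was 0.63, beside 0.0085 over all genes tested, and they ran from -0.086 for Ncapd2 to 1.08 for Kif4. In 4 members, namely Kif11, Kif20b, Kif23 and Ckap2l, every KO library lay above every WT library, and in 0 the reverse held. That count is near the background, since 10% of all genes were higher and 10.3% lower in KO with no overlap. The fold changes of the members are not independent of each other, since all come from the same 6 libraries.

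KO replicate 1 held the highest CPM of 40 of the 42 members, and it did so for 18.1% of all genes tested. KO replicate 4 was the highest for the other two, Mki67 and Anln, where it was the highest for 18.9% of all genes, and it was the second highest for 37 more. KO replicate 1 lay above both WT libraries for all 42 members and KO replicate 4 for 39, but KO replicate 2 did so for 9 and KO replicate 3 for 7. Both KO replicates 2 and 3 lay within the range of the WT libraries for 16 members. The WT libraries also differed from each other: WT replicate 2 lay above WT replicate 1 for 41 members, with a median ratio of 1.54 and a range from 0.930 (Ckap2l) to 4.54 (Ncapg). WT replicate 1 was the lowest library for 26 members, beside 18.1% of all genes. For the counts in this paragraph that stand without a share of all genes, that share was not taken. Those counts describe the members only and cannot be set against a background.

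**Figure D2:**
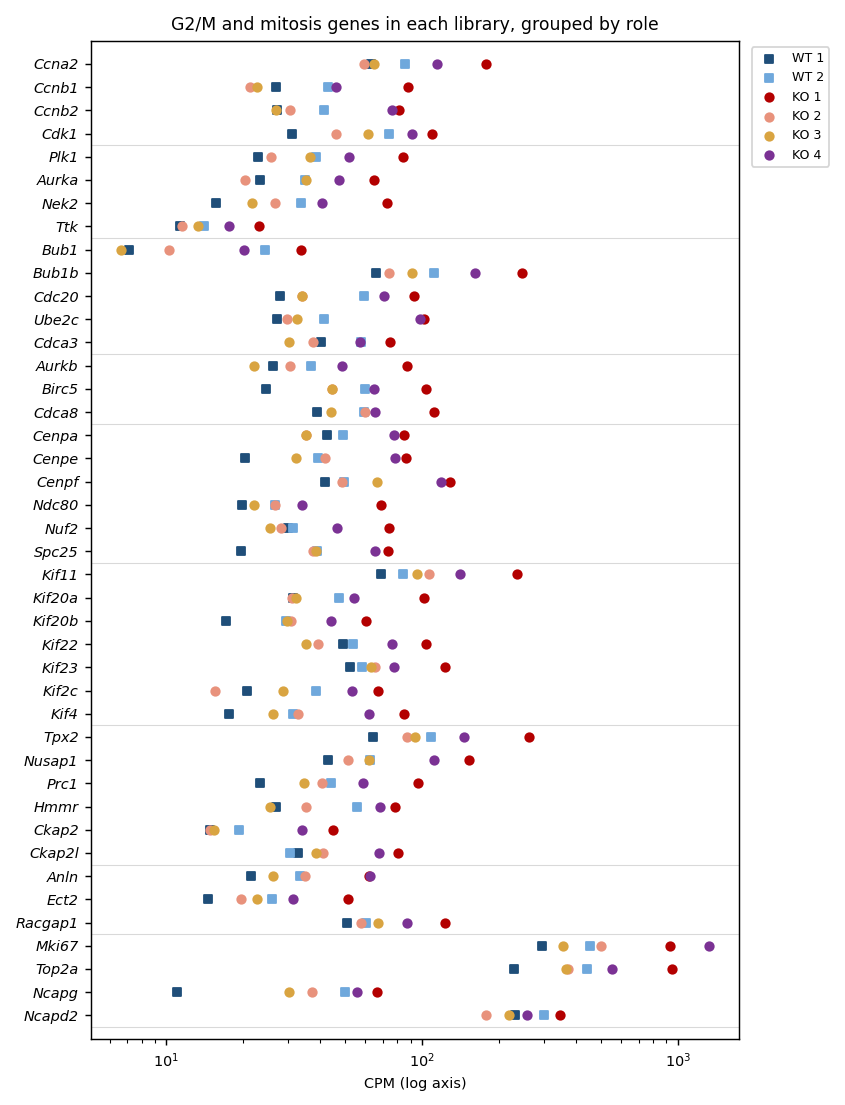
CPM of each of the 42 members (1 line per gene, log axis) in the 2 WT libraries (squares) and the 4 KO libraries (circles), grouped by role. KO replicates 1 and 4 lie at the right for nearly every gene. KO replicates 2 and 3 lie near or among the WT libraries for most genes, and both are within the WT range for 16 of the 42, a count taken for the members only.

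Among the cyclins and their kinase, all 4 members had a log2 fold change above 0, with a median of 0.51, and none had an unadjusted p under 0.05. Ccnb1 (chromosome 13, 100778650 to 100786570 in mm10), the B-type cyclin that carries Cdk1 into mitosis, had 97 and 164 counts in WT and 436, 102, 65 and 94 in KO, or 26.7 and 42.7 CPM against 88.0, 21.3, 22.7 and 46.0 CPM. KO replicate 1 was well above the rest, KO replicates 2 and 3 were the lowest of all 6, and the groups overlapped. Its log2 fold change was 0.37 (SE 0.51, adjusted p = 0.847) in the edgeR test, and only 42.8% of its exon reads were placed uniquely. Counted on unique exon reads alone, that fold change was 0.39.

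Ccnb2, the second mitotic B-type cyclin and the one with the most RNA per length in this group (a mean of 8.30 RPKM), had 98 and 159 counts in WT and 402, 146, 77 and 155 in KO, or 27.0 and 41.4 CPM against 81.1, 30.5, 26.9 and 75.9 CPM. The highest were KO replicates 1 and 4, nearly alike and well above the rest. The log2 fold change of Ccnb2 was 0.64 (SE 0.44, adjusted p = 0.664). Cdk1 (chromosome 10, 69335146 to 69352938), the kinase whose activity starts mitosis, had 113 and 284 counts in WT and 541, 221, 176 and 186 in KO, or 31.1 and 74.0 CPM against 109, 46.1, 61.4 and 91.0 CPM. Its WT replicate 2 lay above KO replicates 2 and 3, and the groups overlapped, with a log2 fold change of 0.55 (SE 0.38, adjusted p = 0.669). Ccna2, the A-type cyclin of S and G2 phase, was highest in KO replicate 1 and lowest in KO replicate 2, and its log2 fold change was 0.48 (SE 0.39, adjusted p = 0.715).

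The 4 mitotic kinases had a median log2 fold change of 0.61 and 0 unadjusted p under 0.05. Plk1 (chromosome 7, 122159439 to 122169873), the polo-like kinase that acts from mitotic entry to exit, had 83 and 147 counts in WT and 416, 123, 104 and 106 in KO, or 22.8 and 38.3 CPM against 83.9, 25.7, 36.3 and 51.9 CPM. KO replicates 1 and 4 were above both WT libraries and the other KO libraries below WT replicate 2, for a log2 fold change of 0.70 (SE 0.42, adjusted p = 0.620). Nek2, a kinase that parts the centrosomes, had 57 and 129 counts in WT and 360, 127, 62 and 83 in KO, or 15.7 and 33.6 CPM against 72.6, 26.5, 21.6 and 40.6 CPM, and the order of its libraries was the same at the top. For Nek2 the log2 fold change was 0.72 (SE 0.47, adjusted p = 0.640). Aurka, which matures centrosomes and builds the spindle, and Ttk, the Mps1 kinase of the spindle checkpoint, had log2 fold changes of 0.53 and 0.37. Per length, Ttk had the least RNA of all members, with a mean of 0.845 RPKM.

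In the group of the spindle checkpoint and the anaphase promoting complex, the 5 log2 fold changes had a median of 0.41 and ran from 0.031 to 0.92. Bub1b, the checkpoint protein BubR1, had 239 and 427 counts in WT and 1216, 355, 262 and 328 in KO, or 65.8 and 111 CPM against 245, 74.1, 91.5 and 161 CPM. KO replicate 1 stood at the top and KO replicate 4 came next, while KO replicates 2 and 3 lay between the WT libraries. The log2 fold change of Bub1b was 0.69 (SE 0.42, adjusted p = 0.621). Ube2c, the ubiquitin-conjugating enzyme that works with the anaphase promoting complex, had 98 and 159 counts in WT and 503, 142, 93 and 200 in KO, or 27.0 and 41.4 CPM against 101, 29.6, 32.5 and 97.9 CPM. Again KO replicates 1 and 4 were nearly equal and far above the rest. The fit over all libraries gave a log2 fold change of 0.92 (SE 0.50, adjusted p = 0.582). Cdc20, which activates the anaphase promoting complex, and Bub1, a checkpoint kinase, had log2 fold changes of 0.41 and 0.18. Cdca3, which helps cells enter mitosis, had the smallest fold change above 0.

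The chromosomal passenger complex, which corrects wrong attachments and guides the last cut, gave 3 members with log2 fold changes of 0.59 for its kinase Aurkb, 0.61 for Birc5 (survivin) and 0.52 for Cdca8 (borealin). Birc5 had 89 and 230 counts in WT and 513, 212, 127 and 132 in KO, or 24.5 and 59.9 CPM against 103, 44.3, 44.3 and 64.6 CPM. WT replicate 1 was the lowest and WT replicate 2 was close to KO replicate 4. Cdca8 had 141 and 227 counts in WT and 550, 287, 126 and 133 in KO, or 38.8 and 59.1 CPM against 111, 59.9, 44.0 and 65.1 CPM. KO replicate 1 stood alone at the top, and the other KO libraries were near WT replicate 2 or below it. The adjusted p was 0.649 for Birc5 and 0.624 for Cdca8 (edgeR).

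The 6 centromere and kinetochore genes had a median log2 fold change of 0.80, with 3 of them, Cenpe, Cenpf and Spc25, at an unadjusted p under 0.05. Cenpf, a large protein of the outer kinetochore, had 151 and 189 counts in WT and 634, 233, 190 and 242 in KO, or 41.6 and 49.2 CPM against 128, 48.6, 66.3 and 118 CPM. KO replicates 1 and 4 were far above the WT libraries, and KO replicate 2 lay just below WT replicate 2. Cenpf had a log2 fold change of 0.99 (SE 0.36, adjusted p = 0.432). Spc25, a part of the Ndc80 complex that grips microtubules, had 71 and 149 counts in WT and 363, 179, 110 and 134 in KO, or 19.5 and 38.8 CPM against 73.2, 37.4, 38.4 and 65.6 CPM. Its KO replicates 2 and 3 were just below WT replicate 2, and its log2 fold change was 0.87 (SE 0.35, adjusted p = 0.468). Cenpe, the kinesin that carries chromosomes to the middle of the spindle, had 20.4 and 39.1 CPM in WT and 86.5, 41.7, 32.1 and 78.3 CPM in KO. WT replicate 1 was the lowest library and the groups overlapped, for a log2 fold change of 1.00 (SE 0.41, adjusted p = 0.476). Cenpa, the histone H3 variant of centromeres, had 154 and 188 counts in WT and 420, 169, 101 and 158 in KO, or 42.4 and 49.0 CPM against 84.7, 35.3, 35.3 and 77.3 CPM. KO replicates 2 and 3 lay below both WT libraries, and the log2 fold change was 0.34 (SE 0.36, adjusted p = 0.784). Ndc80 and Nuf2, partners of Spc25, had log2 fold changes of 0.72 and 0.51.

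The 7 kinesin motors had a median log2 fold change of 0.58, with 3 members, Kif11, Kif20b and Kif4, at an unadjusted p under 0.05. Kif11 (chromosome 19, 37376403 to 37421859), the Eg5 motor that pushes the spindle poles apart, had 250 and 323 counts in WT and 1165, 509, 272 and 288 in KO, or 68.8 and 84.1 CPM against 235, 106, 94.9 and 141 CPM. All 4 KO libraries lay above both WT libraries. With a log2 fold change of 0.92 (SE 0.33, adjusted p = 0.424), it was the member with the smallest p. Kif20b, a motor of late mitosis, had 62 and 113 counts in WT and 300, 147, 85 and 90 in KO, or 17.1 and 29.4 CPM against 60.5, 30.7, 29.7 and 44.0 CPM. Its groups did not overlap, but KO replicates 2 and 3 lay only just above WT replicate 2, for a log2 fold change of 0.83 (SE 0.34, adjusted p = 0.473). Kif4, a motor bound to chromosomes, had 17.6 and 31.3 CPM in WT and 85.1, 32.6, 26.2 and 62.2 CPM in KO. The log2 fold change of Kif4 was the highest of all members at 1.08 (SE 0.45, adjusted p = 0.484), and KO replicate 3 lay between its WT libraries. Kif23, the motor of the central spindle, had 52.0 and 58.3 CPM in WT and 123, 65.3, 62.8 and 77.3 CPM in KO, and its groups did not overlap. Kif23 had a log2 fold change of 0.58 (SE 0.27, adjusted p = 0.517). Kif20a, Kif22 and Kif2c, which act in cytokinesis, chromosome arms and microtubule breakdown, had log2 fold changes of 0.48, 0.30 and 0.47.

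Spindle and microtubule-binding genes, 6 in all, had a median log2 fold change of 0.78, with Ckap2l at an unadjusted p under 0.05. Ckap2l, a spindle protein of dividing precursor cells, had 119 and 117 counts in WT and 399, 196, 110 and 139 in KO, or 32.8 and 30.5 CPM against 80.5, 40.9, 38.4 and 68.0 CPM. Every KO library was above both WT libraries and KO replicates 1 and 4 were clearly so, for a log2 fold change of 0.85 (SE 0.31, adjusted p = 0.425). Tpx2, which activates Aurka on the spindle, had 234 and 415 counts in WT and 1291, 419, 269 and 297 in KO, or 64.4 and 108 CPM against 260.4, 87.5, 93.9 and 145 CPM. KO replicates 2 and 3 lay between the WT libraries, and the log2 fold change was 0.77 (SE 0.41, adjusted p = 0.576). Nusap1, which bundles microtubules near chromosomes, had 155 and 240 counts in WT and 757, 245, 178 and 228 in KO, or 42.7 and 62.5 CPM against 153, 51.1, 62.1 and 112 CPM. Highest were KO replicates 1 and 4, and KO replicate 3 was level with WT replicate 2, for a log2 fold change of 0.84 (SE 0.40, adjusted p = 0.526). Prc1, which crosslinks the central spindle, Hmmr, a receptor and spindle protein, and Ckap2 had log2 fold changes of 0.78, 0.33 and 0.67.

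For cytokinesis, the median log2 fold change of 3 members was 0.63. Anln, anillin of the contractile ring, had 78 and 128 counts in WT and 308, 167, 75 and 128 in KO, or 21.5 and 33.3 CPM against 62.1, 34.9, 26.2 and 62.6 CPM. Its values in KO replicates 1 and 4 were nearly equal, and KO replicate 3 was below WT replicate 2. The fitted log2 fold change was 0.75 (SE 0.36, adjusted p = 0.532). Racgap1, which partners with Kif23 to signal for the ring, had 185 and 232 counts in WT and 609, 276, 193 and 178 in KO, or 50.9 and 60.4 CPM against 123, 57.6, 67.4 and 87.1 CPM. KO replicate 2 lay just below WT replicate 2, so that the groups overlapped by a small margin, with a log2 fold change of 0.59 (SE 0.28, adjusted p = 0.528). Ect2, the exchange factor that switches on the ring, had a log2 fold change of 0.63.

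Chromosome structure genes, 4 in all, held the members with the highest deposited RPKM. These were Ncapd2 at a mean of 25.3 RPKM, Mki67 at 16.7 and Top2a at 15.1, where the median member had 4.01 RPKM. Of the exon reads of Ncapd2 only 44.6% were unique, beside 99.3% for Mki67 and 99.0% for Top2a, so the first place of Ncapd2 is uncertain. Mki67 (chromosome 7, 135689784 to 135716361), whose product Ki-67 coats mitotic chromosomes and marks cycling cells, had 1065 and 1739 counts in WT and 4624, 2401, 1017 and 2707 in KO, or 293 and 453 CPM against 933, 501, 355 and 1325 CPM. It was the highest in KO replicate 4, not KO replicate 1, and KO replicate 3 lay between the WT libraries. The log2 fold change of Mki67 was 1.06 (SE 0.44, adjusted p = 0.482). Top2a (chromosome 11, 98992943 to 99024189), the topoisomerase that untangles sister chromatids, had 831 and 1696 counts in WT and 4692, 1771, 1040 and 1131 in KO, or 229 and 442 CPM against 947, 369.7, 363 and 553 CPM. KO replicates 2 and 3 were below WT replicate 2, and the log2 fold change was 0.74 (SE 0.38, adjusted p = 0.573). The ratio of Mki67 to Top2a in CPM was 1.28 and 1.03 in WT and 0.986, 1.36, 0.978 and 2.39 in KO, so that KO replicate 4 stood apart.

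Ncapd2 (chromosome 6, 125168007 to 125191701), a subunit of condensin I, was the single member whose log2 fold change was below 0, at -0.086 (SE 0.23, adjusted p = 0.926). It had 838 and 1147 counts in WT and 1705, 848, 628 and 526 in KO, or 231 and 299 CPM against 344, 177, 219 and 257 CPM. KO replicate 1 was the highest of the libraries, and KO replicates 2 and 3 were below both WT libraries. Only 44.6% of its exon reads were unique, and its exons overlap those of Scarna10 and Gm28967 on the same strand. Ncapg, the other condensin subunit listed, had a log2 fold change of 0.63 (SE 0.49, adjusted p = 0.706), with 40 and 192 counts in WT and 330, 177, 86 and 114 in KO. WT replicate 1 was far below all other libraries.

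**Figure D3:**
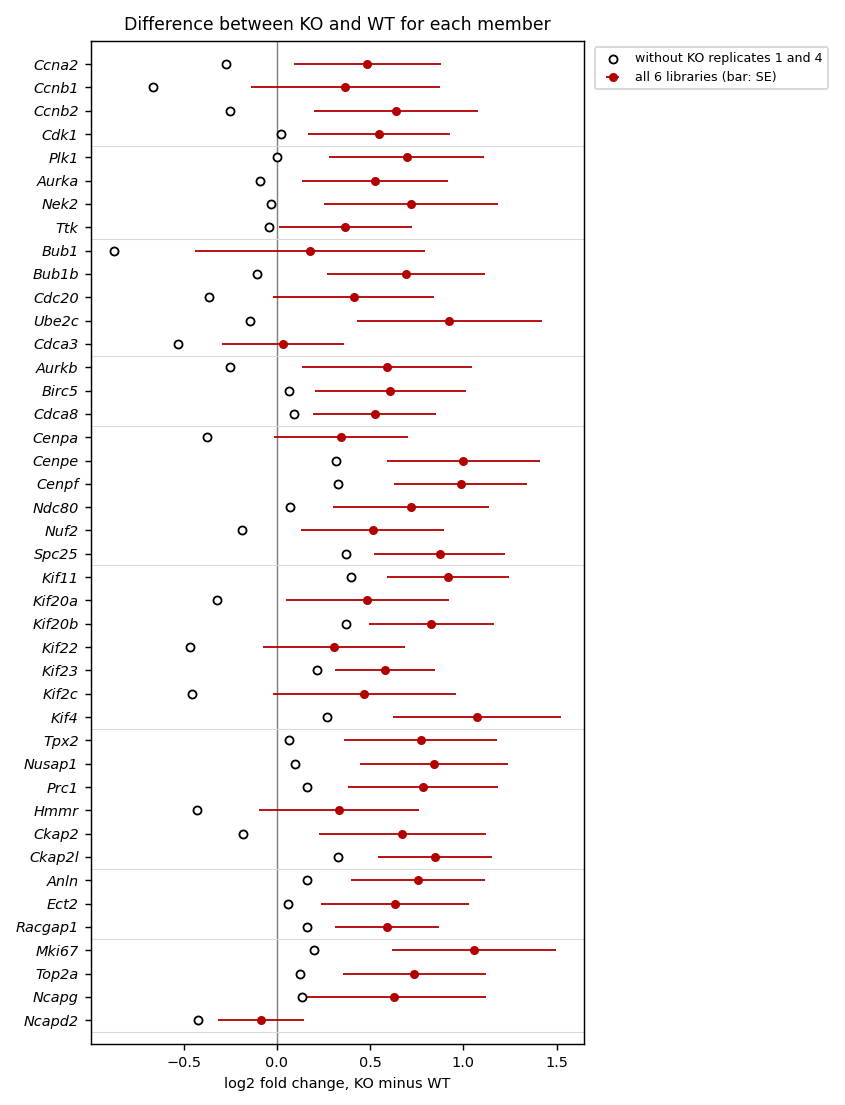
Log2 fold change of KO over WT for each member, by role, as filled circles with bars of 1 SE from the edgeR fit of all 6 libraries, and as open circles without KO replicates 1 and 4. The filled circles lie above 0 for 41 of 42 members with a median of 0.63, and the open circles have a median of 0.011.

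KO replicates 1 and 4 were also the libraries in which some marker lists of other blood lineages stood apart from the rest of KO. With both left out, an alternative added after the data were seen, 22 of 42 members had a log2 fold change above 0, beside 49.1% of all genes, and the median was 0.011. Since these were the KO libraries with the highest values of nearly every member, leaving them out had to bring the fold changes down, so these values are a description of the other four libraries and no test. Without KO replicate 1 alone the median was 0.27, with 36 members above 0 beside 49.7% of all genes and 3 higher at an unadjusted p under 0.05, beside 4.88%. Without WT replicate 1, 36 members were above 0 beside 52%, the median was 0.36 and 0 had an unadjusted p under 0.05, where 4.62% of all genes did. Without WT replicate 2 the median was 1.06. Without KO replicate 2 it was 0.79 and without KO replicate 3 it was 0.80, with 19 members higher at an unadjusted p under 0.05 in each, beside 4.74% and 5.42%. Without KO replicate 4 the median was 0.58 and 4 members were higher at an unadjusted p under 0.05, beside 5.96%. In none of the fits without 1 library did a member pass the adjusted threshold.

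KO replicate 1 was also the library with the most B lineage RNA. The 15 B lineage markers, 12 of which were tested and all of which were highest in KO replicate 1, summed to 391 and 492 CPM in WT and to 2711, 467, 589 and 665 CPM in KO. Among them, Dntt, the enzyme that adds bases at V(D)J joints, had 228 and 263 CPM in WT and 1567, 273, 335 and 300.0 CPM in KO, and Pax5, the factor that commits cells to the B lineage, had 26.4 and 26.0 CPM in WT and 241, 44.3, 49.2 and 88.1 CPM in KO. KO replicate 1 was several times as high as any other library in both. Markers of multipotent and lymphoid-primed progenitors summed to 1119 and 1185 CPM in WT and 3264, 1580, 1600 and 1238 CPM in KO, of which 7 of 9 tested were highest in KO replicate 1. The sums of these lists are not independent, since Dntt, Il7r, Rag1 and Rag2 are on both. In KO replicate 1, Dntt alone gave 1567 of the 2711 CPM of the B lineage list and of the 3264 CPM of the progenitor list.

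KO replicate 4 was the library with the most neutrophil granule and erythroid RNA. The 13 neutrophil granule markers, of which 12 were tested and all were highest in KO replicate 4, summed to 1296 and 1096 CPM in WT and to 464, 1603, 227 and 9724 CPM in KO. Mpo, the peroxidase of azurophil granules, had 293 and 699 CPM in WT and 172, 212, 90.1 and 2012 CPM in KO. The 14 erythroid markers, 12 of which were highest in KO replicate 4, summed to 897 and 1647 CPM in WT and 909, 1336, 875 and 4450 CPM in KO. Markers of mast cells, basophils and eosinophils summed to 283 and 71.6 CPM in WT and 12.9, 39.7, 2.44 and 536 CPM in KO, with Mcpt4 at 0 in all libraries. The part of these other lineages in the mitotic levels was not tested. KO replicate 1 had a neutrophil granule sum below both WT libraries and an erythroid sum near that of WT replicate 1. KO replicate 4 had a B lineage sum of 665 CPM, near that of KO replicate 3 at 589 CPM. Both were above the WT sums of 391 and 492 CPM. The stem cell and KSL markers summed to 3389 and 3215 CPM in WT and 2476, 3602, 3589 and 2785 CPM in KO, and the sums were lowest in KO replicates 1 and 4. Some sums were above both WT libraries in every KO library. CD34, CD48 and lineage markers summed to 679 and 630 against 820, 769, 791 and 782 CPM. That list holds Cd34, Cd48 and Ptprc, so its sum is not one of lineage antigens alone, and 7 of its 10 genes were tested. Monocyte and dendritic markers had 338 and 392 against 792, 656, 580 and 495 CPM, T and NK markers 42.9 and 47.7 against 106, 70.8, 68.4 and 75.4. Megakaryocyte and stroma and endothelium sums were below both WT libraries in every KO library.

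**Figure D4:**
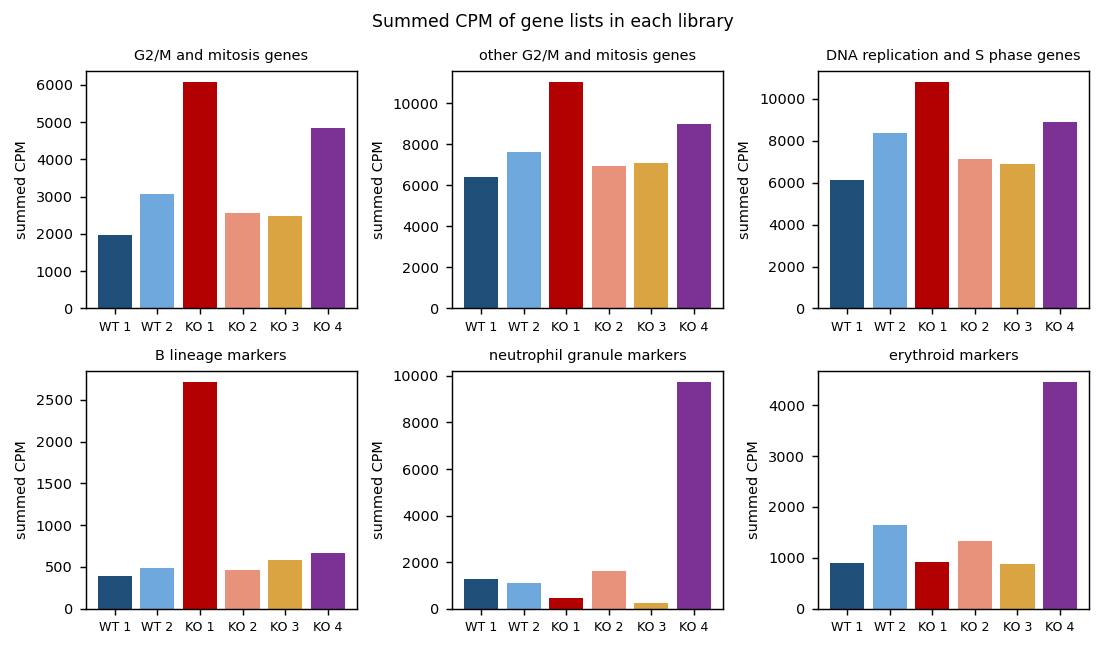
Summed CPM per library for the members, 2 lists of other cell cycle genes and 3 marker lists (bars; each panel starts at 0 and has its own scale). KO replicate 1 has the highest mitotic and B lineage sums, and KO replicate 4 has the second highest mitotic sum and the highest neutrophil granule and erythroid sums.

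Other genes of G2/M phase and mitosis, 117 listed and 115 tested, followed the members in part. A log2 fold change above 0 was seen for 94 of 115, beside 51% of all genes tested, with a median of 0.34. The edgeR test and limma-voom each called 0 of them and DESeq2 called 1, Foxm1, beside 0.727% of all genes. By edgeR, 23 had an unadjusted p under 0.05 and were higher in KO, beside 5.67% of all genes, and 0 were lower, beside 4.23%. Ccna1 and Ccnb3 were at 0 in all libraries. KO replicate 1 was the highest for 74 and KO replicate 4 for 20, where the shares of all genes were 18.1% and 18.9%. Foxm1, the factor that turns on many of the members, had 107 and 125 counts in WT and 549, 263, 183 and 189 in KO, or 29.5 and 32.6 CPM against 111, 54.9, 63.9 and 92.5 CPM. All 4 KO libraries lay above both WT libraries, with KO replicates 1 and 4 the highest. The log2 fold change of Foxm1 was 1.37 (SE 0.28, adjusted p = 0.166) in the edgeR test, DESeq2 gave an adjusted p of 0.000575, and without KO replicates 1 and 4 the fold change was 0.93. Mybl2, which encodes B-Myb, had 31.1 and 32.3 CPM in WT and 64.1, 26.3, 32.5 and 80.3 CPM in KO. KO replicates 1 and 4 were high and KO replicate 2 was below both WT libraries, with a log2 fold change of 0.66 (SE 0.40, adjusted p = 0.620).

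On that list, 20 of 115 genes were higher in KO with no overlap between groups, beside 10% of all genes tested. The count lower in KO was 1, beside 10.3%. Next in order of p came 4 genes whose groups did not overlap, which is likely for genes picked by a small p. Dsn1, of the Mis12 kinetochore complex, had 19.3 and 15.4 CPM in WT and 35.1, 29.4, 29.3 and 31.8 CPM in KO. Ska1, which holds kinetochores on microtubules, had 4.13 and 3.91 CPM in WT and 19.8, 8.35, 9.42 and 14.2 CPM in KO. Cep55, of the midbody, had 6.33 and 6.51 CPM in WT and 39.1, 10.0, 19.5 and 15.7 CPM in KO. The KO libraries of these 3 were all above WT, by the most in KO replicate 1. Ckap5, a microtubule polymerase, had 108 and 126 CPM in WT and 236, 149, 151 and 219 CPM in KO. The log2 fold changes were 0.86 for Dsn1, 1.68 for Ska1, 1.72 for Cep55 and 0.69 for Ckap5, and their adjusted p ran from 0.310 to 0.372 (edgeR).

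The genes of DNA replication and S phase, the part of the cell cycle that comes before G2, showed the same order of libraries with a smaller spread. Their 73 members summed to 6127 and 8362 CPM in WT and to 10801, 7126, 6875 and 8875 CPM in KO. A log2 fold change above 0 was seen for 63, beside 51% of all genes tested, and the median was 0.27. The edgeR test and limma-voom each called 0 and DESeq2 called 1, Atad2, beside 0.727% of all genes, and 11 had an unadjusted edgeR p under 0.05 and were higher in KO, beside 5.67%. Atad2, a chromatin factor of S phase, had 90.8 and 89.9 CPM in WT and 184, 121, 131 and 193 CPM in KO, and all KO libraries were above WT. Its log2 fold change was 0.80 (SE 0.21, adjusted p = 0.307) in the edgeR test, and DESeq2 gave an adjusted p of 0.0343. The log2 fold changes of Hells, Brca1, Brca2 and Usp1, which act in chromatin remodelling and DNA repair, were 0.62, 0.86, 0.61 and 0.50. The MCM helicase genes Mcm2 to Mcm7, which open DNA at origins, had log2 fold changes from 0.028 (Mcm2) to 0.27 (Mcm4), and Pcna, the sliding clamp, had a value of 0.12. Without KO replicates 1 and 4, Mcm4 alone of these stayed above 0. No test compared the G2/M and S phase lists with each other.

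Reads in introns of the members varied less among libraries than reads in their exons. Without Ncapd2, whose exons overlap other genes, unique intron reads of the members came to 970 and 1262 in WT and to 2084, 1629, 1110 and 991 in KO, or, as CPM of all gene counts, to 272 and 331 against 406, 345, 394 and 467. Per unique exon read, the members had 0.155 and 0.119 intron reads in WT and 0.0738, 0.143, 0.173 and 0.106 in KO, lowest in KO replicate 1. Over the genes tested, leaving out CT010467.1, the WT libraries had 0.602 and 0.633 unique intron reads per unique exon read and the KO libraries 0.536, 0.693, 0.747 and 0.789, so KO replicate 4 was the highest there but not among the members. The kit marks strand, but whether the counting used it is not given in the sources used here. For 13 members, among them Cdc20 with Elovl1, Ube2c with Tnnc2 and Nusap1 with Oip5, exons overlap a gene on the other strand, and the reads of such a pair cannot be told apart if strand was not used.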

How the data were processed

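Cells of each genotype were sorted from bone marrow, and the library kit, as described in the labels' protocols, marks strand. Reads were placed on mm10 (per the submitters' processing notes), while the sources used here give neither the aligner nor the counter nor whether strand was used. All 6 libraries (2 WT, 4 KO) share 1 table, whose columns were matched by genotype and number. Its expression values are read counts per gene, per the file headers, and each equals the unique exon reads plus the junction reads not placed uniquely. RPKM as the authors deposited it served to compare levels between genes, and the deposited exon and intron read counts to describe where reads lay. Exon length, deposited by the authors, entered no test. The authors' deposited p-values and their signed fold, a score that is negative where KO is lower, were counted only as their own. Of the other value columns per library, 48 were left aside.

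The members and lists were chosen with earlier results of these data known. The test was edgeR 4.0.16 under R 4.3.3 on counts (filterByExpr on genotype, TMM factors, quasi-likelihood F test, genotype as the only term, Benjamini-Hochberg over 11969 genes at 0.05). The SE is the fold change over the square root of F. Alternatives were DESeq2 1.42.0 (Wald test, and its size factors in edgeR), limma-voom (limma 3.58.1) with quality weights, no filter, a mean of at least 5 CPM, unique or total exon reads, each library left out, KO replicates 3 and 4 left out, a replicate block, and a shorter promoter window. KO replicates 1 and 4 were left out together in an alternative added after the data were seen. The test was tried on simulated data. Values in every library were given, by rule, for each role's member with the highest mean RPKM, its 2 with the smallest p, and Mki67, Top2a, Ccnb1, Cdk1 and Plk1. Of the other cell cycle lists the rule took the 5 with the smallest p, Foxm1, Mybl2, Pcna and Mcm2 to Mcm7, and of marker lists the 2 with the highest mean CPM and those at 0 in all libraries. Of these, Hells, Brca1, Brca2, Usp1, Pcna and Mcm2 to Mcm7 are given by fold change only, and not every marker taken is named. Cenpe, Kif4, Kif23, Ncapg and Pax5 were named with library values after those were seen. All 42 member symbols and IDs were found in GENCODE M21, 40 with the same position. Tables used pandas 2.3.3 and figures matplotlib 3.10.9.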

Additional observations from a re-analysis of the deposited data

Results flagged for a closer look

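In 65 sets of values over the 4 KO libraries (the CPM of each member and the summed CPM of each list), the gap between the highest or lowest library and its neighbour was set against the whole range and compared with Dixon's 95% critical value for 4 samples. None of the 42 members exceeded it, and 5 marker lists did. The measure looks for 1 library apart from the rest, while KO replicates 1 and 4 were high together for most members. It can therefore hardly mark either of them there, as for Ube2c with a gap of 0.050 of the range. Chance alone gives about 1 in 20 groups, and the lists share libraries and a few genes. KO replicate 1 stood apart as the highest in B lineage markers, with a gap of 0.912 of the range, and as the lowest in megakaryocyte markers, with 0.871 of the range. KO replicate 4 stood apart as the highest in erythroid markers (0.871), in neutrophil granule markers (0.855) and in markers of mast cells, basophils and eosinophils (0.930). The part of these lists in the members' levels was not tested.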

How the results depend on the processing

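The median log2 fold change of the members (0.63) was 0.011 without KO replicates 1 and 4, left out after the data were seen and the highest in KO for nearly every member, so that the median had to come down, and 0.27 to 1.06 with 1 library left out. The count of all genes called (19) was 87 by DESeq2, 9 by limma-voom, 307 with no filter, 84 without KO replicates 1 and 4, 33 without KO replicates 3 and 4, and 2 to 30 with 1 library left out. Members called went from 0 to 11 with no filter. Other G2/M genes called went from 0 to 1 by DESeq2 and to 11 with no filter, and S phase genes to 1 and to 4. Of 960 values of single genes over 16 alternatives, 882 kept their direction and their side of the threshold, 60 changed sign and 18 newly passed it.

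By limma-voom the log2 fold change turned to -0.092 for Ccnb1, -0.10 for Bub1, -0.19 for Cdca3, -0.035 for Kif22, -0.087 for Mcm2, -0.020 for Mcm3 and -0.040 for Mcm5. Without KO replicates 1 and 4 it turned to -0.27 for Ccna2, -0.66 for Ccnb1, -0.25 for Ccnb2, -0.089 for Aurka, -0.031 for Nek2, -0.045 for Ttk, -0.88 for Bub1, -0.11 for Bub1b, -0.37 for Cdc20, -0.15 for Ube2c, -0.53 for Cdca3, -0.25 for Aurkb, -0.38 for Cenpa, -0.19 for Nuf2, -0.32 for Kif20a, -0.47 for Kif22, -0.46 for Kif2c, -0.43 for Hmmr, -0.18 for Ckap2, -0.12 for Mybl2, -0.033 for Pcna, -0.32 for Mcm2, -0.19 for Mcm3, -0.31 for Mcm5, -0.048 for Mcm6 and -0.099 for Mcm7. With 1 library left out the range was -0.26 to 0.74 for Ccnb1, -0.44 to 1.31 for Bub1, -0.032 to 1.05 for Cdc20, -0.26 to 0.31 for Cdca3, -0.042 to 0.81 for Kif20a, -0.073 to 0.50 for Kif22, -0.097 to 0.95 for Hmmr, -0.078 to 2.10 for Ncapg, -0.30 to 0.11 for Ncapd2, -0.034 to 0.26 for Pcna, -0.14 to 0.21 for Mcm2, -0.10 to 0.26 for Mcm3, -0.15 to 0.38 for Mcm5, -0.17 to 0.44 for Mcm6 and -0.12 to 0.42 for Mcm7. Beyond that, the cause was not tested.

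Replicate numbers 1 and 2 occur in both genotypes, and deviations of libraries with the same number had a correlation of -0.094 over genes. This is 1 value from 4 libraries, and KO replicate 1 differed widely from KO replicate 2. It cannot decide whether the same number marks a pair. With the replicate number as a block in those 4 libraries, 34 genes and 0 members were called, and the median of the members was 0.71. With 2 WT libraries, 1 of them decides much of every difference, and where a fit leaves 1 WT library it is taken to vary like the KO libraries. Counts of the members ran from 19 to 4692 per library, and their sum was lowest in KO replicate 3 (7074) and WT replicate 1 (7134), where counting error is largest.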
